A study of Mus musculus with 10 samples.

Results

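The insulin-like growth factor (IGF) genes described here are the ligands *Igf1* and *Igf2*, the receptors *Igf1r* and *Igf2r*, and the binding proteins *Igfbp2* to *Igfbp7*. They were taken by name, and all 10 were found among the 26888 genes of the deposited table. OP9 is a mouse stromal cell line from the calvaria of (C57BL/6xC3H)F2-op/op mice, which lack functional macrophage colony-stimulating factor; the labels call the line foetal, whereas the study describes newborn donors. Its RNA was sequenced in 6 reaggregates and 4 flat cultures. For reaggregation, trypsin-dispersed cells were pelleted and kept for 48 h on nitrocellulose filters where medium meets gas. Of the reaggregates, 3 were without IL-3 and 3 with IL-3, at 200 µg/µl as the labels print the dose, which may be a unit error. Before RNA was taken, enzymes (collagenase and dispase) separated the reaggregated cells. This step is described for reaggregates alone, so its effect and that of culture form cannot be told apart. The flat cultures grew submersed, without reaggregation, and 2 of them (flat cultures 2 and 4) carry the label of the de Bruijn laboratory. Flat cultures 1 and 3 and the reaggregates carry no laboratory label, both culture forms used medium with foetal calf serum, and every library comes from this single line. The study says that cells for flat culture came from either the Medvinsky or the de Bruijn group. It calls the variance from cell source equivalent to that from passage number, and passage numbers were not used here.

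IGF1 and IGF2 are secreted peptides that promote growth and survival through the receptor tyrosine kinase IGF1R, which signals through IRS adaptors to PI3K and AKT. IGF2R, the cation-independent mannose 6-phosphate receptor, takes up IGF2 for degradation in lysosomes and also sorts lysosomal enzymes. The IGF-binding proteins hold the ligands in the extracellular space, where proteases release them, and marrow stromal cells and osteoblasts are known sources of both ligands and binding proteins.

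Expression is given in RPM, the reads of a gene per 1000000 reads assigned to genes in that library. Taking the most frequent low value as 1 read, the libraries held 7.35 to 9.43 M reads on genes. The detection floor used here, 3 reads, was 0.318 to 0.408 RPM and allows for counting error alone. The reaggregates stood in consecutive pairs (1 with 2, 3 with 4, 5 with 6), each holding a culture without and a culture with IL-3. Pearson's r, taken over genes that are no independent replicates, was 0.994 to 0.995 inside these 3 pairs and 0.961 to 0.980 for the 12 other pairs of reaggregates. Among the flat cultures, the labelled and the unlabelled ones differed strongly for *Igf1*, *Igfbp4* and *Igfbp5*, and their values interleaved for *Igf1r* and *Igf2r*. Nothing in the labels says that replicates came from separate cultures, so p-values measure only the spread between these libraries, which may be technical. Differences are on the log2(RPM + 0.5) scale, which makes changes of genes with low RPM look smaller than they are. A gene counted as up- or down-regulated when limma gave a change of 2-fold or more and a Benjamini-Hochberg adjusted p up to 0.05, tested on 16933 genes, those that exceeded 0.5 RPM in 1 or more libraries. Of the 10 IGF genes 8 passed that filter, and *Igfbp2* and *Igfbp3* did not.

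In reaggregates compared with flat cultures, *Igf1*, *Igf2r* and *Igfbp5* were up-regulated and *Igfbp7* was down-regulated. That is 3 genes up and 1 down among the 8 tested, where 7.32% of all genes tested were called up and 6.53% down. The reaggregate and flat values did not overlap for these 4 genes, and did not overlap for 19.1% of all genes tested. Leaving out flat culture 4 gave 766 genes up in place of 1239, leaving out flat culture 3 gave 2121, and without flat culture 2 *Igfbp7* was no longer called, leaving 0 IGF genes down beside 6.55% of all genes. With consecutive reaggregates averaged, 1 IGF gene was up and 0 were down, and 321 genes in all were up. *Igf2*, *Igfbp4*, *Igf1r* and *Igfbp6* did not pass the threshold with all libraries. In these bulk samples, fewer cells that express a gene and less RNA of it per cell cannot be told apart. Annotated genes on the opposite strand overlap *Igf1* (*Gm16176*), *Igf2* (*Igf2as*), *Igf2r* (*Airn*) and *Igfbp7* (*Polr2b* among them). Whether the counting used strand is not given in the sources used here, so reads of such partners cannot be told apart.

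**Figure D1:**
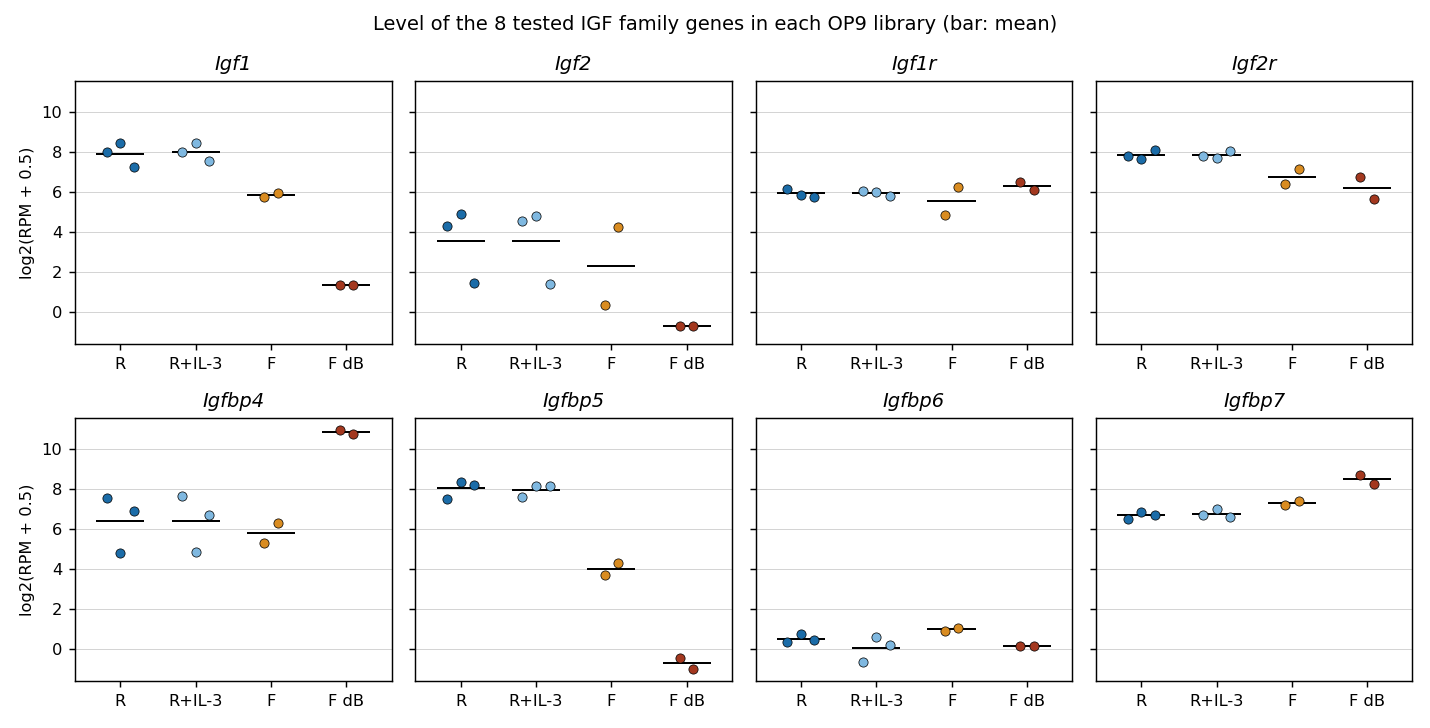
Expression of the 8 tested IGF genes as log2(RPM + 0.5), 1 point per library, in reaggregates without IL-3 (R, n = 3), reaggregates with IL-3 (R+IL-3, n = 3), flat cultures without a laboratory label (F, n = 2) and flat cultures with the de Bruijn label (F dB, n = 2); bars are means. *Igf1* and *Igfbp5* are highest in reaggregates and lowest in the labelled flat cultures, whereas *Igfbp4* is highest in the labelled flat cultures.

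*Igf1* (ENSMUSG00000020053, chr10:87321010-87399792, plus strand of NCBI37 in GENCODE, as for the positions of the other genes) encodes the ligand that acts through IGF1R. In the 6 reaggregates *Igf1* expression ranged from 153 to 358 RPM, with a median of 254.5 RPM. In the flat cultures *Igf1* measured 53.6, 2.03, 61.4 and 2.05 RPM in cultures 1 to 4. Every reaggregate was above every flat culture, and the flat cultures with the de Bruijn label were far below those without it. The difference was 4.36 on the log2 scale with a standard error of 0.88 (limma, Benjamini-Hochberg adjusted p = 0.00506), and the two-sided exact permutation test over 210 splits gave p = 0.00952, the smallest it can give. That test, here and for the genes that follow, treats the 6 reaggregates as separate samples; with the 3 pairs as samples there are 35 splits, and no exact permutation p could go below 0.0571. Among reaggregates, numbers 5 and 6 were lowest, at 153 and 187 RPM, still above all flat cultures. Against the unlabelled flat cultures alone the log2 difference for *Igf1* was 2.10 (limma, adjusted p = 0.00311), and against the labelled ones alone it was 6.61. With the consecutive reaggregates averaged in RPM, as 3 samples, the difference was 4.36 but the call was lost (limma, adjusted p = 0.0727), as it was with only the reaggregates of 1 IL-3 state; over all 24 alternatives adjusted p ran from 4.32e-07 to that value. With averaged pairs against the unlabelled flat cultures only, an alternative chosen after seeing the data, the call was met at a log2 difference of 2.10 (limma, adjusted p = 0.0323).

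*Igf2* (ENSMUSG00000048583, chr7:149836673-149852721, minus strand), an imprinted gene, encodes the fetal growth ligand. Reaggregates 1 to 4 held 19.1, 23.1, 29.3 and 27.4 RPM of *Igf2*, and reaggregates 5 and 6 held 2.28 and 2.12 RPM. The flat cultures 1 to 4 held 0.806, 0.119, 18.6 and 0.121 RPM. Flat culture 3 thus lay among the reaggregates, and the groups overlapped. The log2 difference was 2.75 with a standard error of 1.06, and it did not meet the threshold (limma, Benjamini-Hochberg adjusted p = 0.0687; exact permutation p = 0.0571). The call was gained when reaggregate 5, reaggregate 6 or flat culture 3 was left out, at log2 differences of 3.17, 3.19 and 3.90, and against the labelled flat cultures alone, at 4.26. Against the unlabelled flat cultures alone the log2 difference was 1.25, without a call (limma, adjusted p = 0.524). With consecutive reaggregates averaged it was 2.76, also without a call (limma, adjusted p = 0.206). In the labelled flat cultures *Igf2* rested on 2 reads in all, so that the mean of the reaggregates was 143 times that level with a 95% counting interval of 39.7 to 1185. That interval leaves out the spread between reaggregates, of which numbers 5 and 6 lay far below the mean of 17.2 RPM. Within consecutive pairs *Igf2* differed by at most 0.27 on the log2 scale, while the means of the 3 pairs spanned 3.42.

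*Igf1r* (ENSMUSG00000005533, chr7:75097713-75371484, plus strand) encodes the signalling receptor for both ligands. Its level in reaggregates ranged from 54.7 to 70.9 RPM with a median of 61.3 RPM. Flat cultures 1 to 4 had 28.7, 89.9, 76.2 and 69.0 RPM of *Igf1r*. The reaggregates lay inside the range of the flat cultures, with flat culture 1 lowest and flat culture 2 highest. The log2 difference was 0.01, with a 95% confidence interval from −0.57 to 0.60 (limma, Benjamini-Hochberg adjusted p = 0.976). This interval joins flat cultures that gave opposite signs, −0.36 for the labelled and 0.38 for the unlabelled ones. Against the unlabelled ones alone it ran from −0.30 to 1.07, so that a change of more than 2-fold was not excluded there.

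*Igf2r* (ENSMUSG00000023830, chr17:12875272-12962530, minus strand) encodes the receptor that clears IGF2. The reaggregates had between 205 and 276 RPM of *Igf2r*, with a median of 223 RPM. The flat cultures 1 to 4 had 84.5, 110, 141 and 49.8 RPM. All reaggregates exceeded all flat cultures, and reaggregates 5 and 6, the lowest for both ligands, were the highest for *Igf2r*. The log2 difference was 1.37 with a standard error of 0.25 (limma, Benjamini-Hochberg adjusted p = 0.00279; exact permutation p = 0.00952). Against the unlabelled flat cultures it was 1.09 (limma, adjusted p = 0.00943) and against the labelled ones 1.64. With consecutive reaggregates averaged the log2 difference was still 1.37 but the call was lost (limma, adjusted p = 0.0582, within a range of 0.000502 to 0.109 over 24 alternatives), as it was with only the reaggregates of 1 IL-3 state, at 1.36 and 1.37.

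*Igfbp5* (ENSMUSG00000026185, chr1:72904506-72921458, minus strand) encodes a binding protein that attaches to extracellular matrix and is abundant in bone. In reaggregates its level ranged from 183 to 329 RPM, with a median of 283.5 RPM. In flat cultures 1 to 4 it was 12.5, 0.239, 19.2 and 0 RPM. The lowest reaggregate stood well above the highest flat culture, and the labelled flat cultures were below the floor of 3 reads. The log2 difference of 6.35, with a standard error of 0.92, was the largest of the 8 tested IGF genes (limma, Benjamini-Hochberg adjusted p = 0.000858; exact permutation p = 0.00952). *Igfbp5* was called up in each of the 24 alternatives, with log2 differences from 3.99 to 8.71 and limma adjusted p from 3.23e-08 to 0.0319. Of these, 3.99 was measured against the unlabelled flat cultures, whose own values were above the floor. In the labelled flat cultures 2 reads of *Igfbp5* were found in all, and the mean of reaggregates was 2174 times that level with a 95% counting interval from 602 to 17949.5.

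*Igfbp4* (ENSMUSG00000017493, chr11:98902558-98913969, plus strand) encodes a binding protein that inhibits IGF action until it is cleaved by the protease PAPP-A. Reaggregates 1 to 6 had 188, 203, 27.3, 27.9, 120 and 103 RPM of *Igfbp4*. The flat cultures 1 to 4 had 38.3, 2000, 78.4 and 1710 RPM. Both labelled flat cultures lay far above all other libraries, and the unlabelled ones lay within the range of the reaggregates. Over all libraries the log2 difference was −1.91 with a standard error of 1.12 (limma, Benjamini-Hochberg adjusted p = 0.206; exact permutation p = 0.2), which is not past the threshold. The sign depended on the flat cultures used: −4.44 against the labelled cultures (limma, adjusted p = 0.00124) and 0.62 against the unlabelled ones (limma, adjusted p = 0.626), within 0.00124 to 0.676 over 24 alternatives. Within consecutive reaggregate pairs *Igfbp4* differed by at most 0.22 on the log2 scale, while the pair means spanned 2.80.

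*Igfbp7* (ENSMUSG00000036256, chr5:77778265-77837070, minus strand) encodes a secreted protein related to the binding proteins, with low affinity for IGFs. Its level in reaggregates ranged from 90.8 to 127 RPM, with a median of 102 RPM. The flat cultures 1 to 4 had 144, 419, 170 and 307 RPM of *Igfbp7*. All reaggregates were below all flat cultures, and the labelled flat cultures were the highest. On the log2 scale *Igfbp7* fell by 1.17 with a standard error of 0.27 (limma, Benjamini-Hochberg adjusted p = 0.00844; exact permutation p = 0.00952). Against the unlabelled flat cultures the log2 difference of −0.58 was short of 2-fold, and without flat culture 2 it was −0.90, so that the gene was called in neither. With consecutive reaggregates averaged the log2 difference was still −1.17 but the call was lost (limma, adjusted p = 0.0954, within 3.27e-05 to 0.186 over 24 alternatives), and likewise with only the reaggregates of 1 IL-3 state, at −1.21 and −1.13.

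The remaining binding proteins were scarce. *Igfbp6* (ENSMUSG00000023046, chr15:101974793-101979942, plus strand), whose product prefers IGF2 as ligand, ranged from 0.136 to 1.2 RPM in reaggregates, with a median of 0.819 RPM. It measured 1.38, 0.596, 1.56 and 0.607 RPM in flat cultures 1 to 4. The groups overlapped, and the log2 difference of −0.27 had a 95% confidence interval from −0.95 to 0.40 (limma, Benjamini-Hochberg adjusted p = 0.508). At these low values the interval depends on the 0.5 added before taking logs, and with 0.1 it reached from −1.54 to 0.66. *Igfbp3* (ENSMUSG00000020427, chr11:7106089-7113926, minus strand), the main carrier of IGFs in serum, was listed at 0 in 8 libraries and at 1 read in reaggregate 5 and flat culture 3, below the floor. *Igfbp2* (ENSMUSG00000039323, chr1:72871077-72899048, plus strand), which neighbours *Igfbp5* on the opposite strand, was listed at 0 in all 10 libraries.

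**Figure D2:**
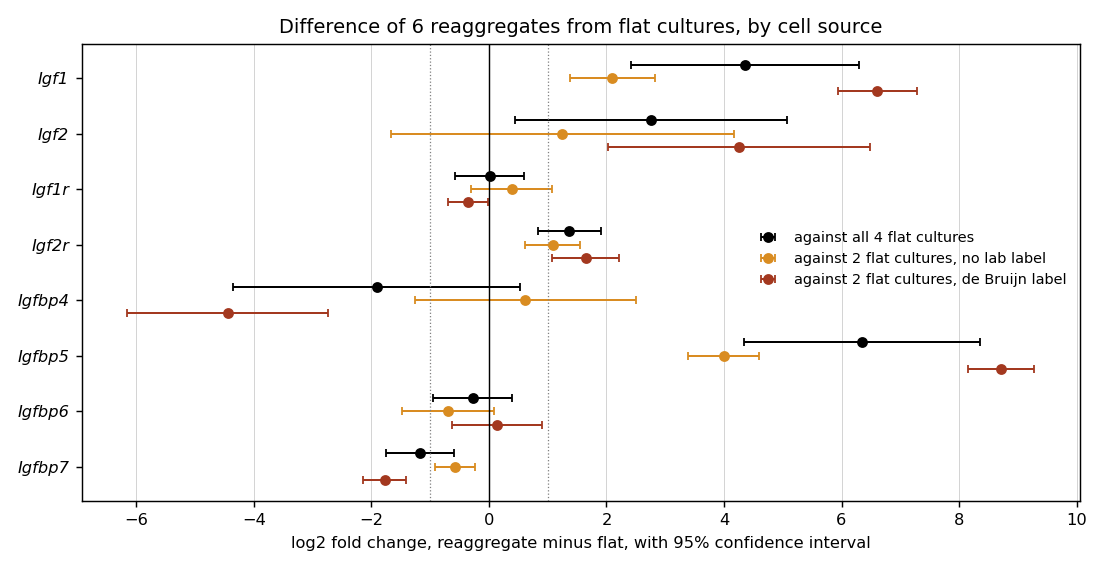
Log2 fold change of 8 IGF genes (reaggregate minus flat, with 95% confidence intervals from limma) for 6 reaggregates against all 4 flat cultures, against the 2 without a laboratory label and against the 2 with the de Bruijn label; dotted lines mark a 2-fold change. *Igf1* and *Igfbp5* stay right of both lines with their whole intervals in all 3 comparisons, which share the reaggregates. *Igf2* and *Igf2r* do so by their estimates, but not with all their intervals. The estimates of *Igfbp4*, *Igf1r* and *Igfbp6* change sign between the sources.

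Counted against the unlabelled flat cultures, 3 of the 8 tested IGF genes were up (*Igf1*, *Igf2r* and *Igfbp5*) and 0 down, where 3.7% of all genes were called up and 6.17% down. Against the labelled flat cultures 4 were up (*Igf1*, *Igf2*, *Igf2r* and *Igfbp5*) and 2 down (*Igfbp4* and *Igfbp7*), beside 15.2% up and 10.5% down among all genes. These comparisons share the reaggregates. With consecutive reaggregates averaged, only *Igfbp5* was up and 0 were down, where 1.9% and 2.53% of all genes were called. With averaged reaggregates against the unlabelled flat cultures, 2 were up (*Igf1* and *Igfbp5*) and 0 down, beside 0.72% and 2.35% of all genes. With only the reaggregates without IL-3, *Igfbp5* was up and 0 were down, beside 2.04% and 2.8% of all genes, and with only those with IL-3 the counts were the same, beside 1.64% and 2.13%. With the replicate number as a block 4 were up and 1 down, beside 11.1% and 6.82% of all genes.

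Levels of different genes were compared per kb of annotated exon sequence. In reaggregates *Igfbp7* had the highest mean level, at 86.9 ± 10.8 RPM per kb (SD, n = 6), followed by *Igfbp4* at 47.2 ± 31.9 and *Igfbp5* at 43.4 ± 9.93 RPM per kb. The order of these means did not hold in each library: in reaggregates 1 and 2 *Igfbp4*, at 79.6 and 85.9 RPM per kb, was above *Igfbp7*, at 74.9 and 84.1 RPM per kb, and in reaggregates 3 and 4 *Igfbp4*, at 11.6 and 11.8 RPM per kb, was below *Igf1*, at 36.1 and 35.3 RPM per kb, and also below *Igf2r* and *Igf1r*. *Igfbp4* and *Igfbp5* could not be ordered beyond their spread. *Igf1* had a mean of 26.2 ± 8.38 and *Igf2r* at 24.8 ± 3.29 RPM per kb, with overlapping ranges, and *Igf1r* was at 13.8 ± 1.46 RPM per kb. *Igf2* was at 3.13 ± 2.21 and *Igfbp6* at 0.694 ± 0.331 RPM per kb. In the labelled flat cultures *Igfbp4* came first, at 724 and 847 RPM per kb. In the unlabelled flat cultures *Igfbp7* came first, at 119 and 140 RPM per kb, with *Igfbp5* at 2.08 and 3.20 RPM per kb.

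The make-up of the binding protein transcripts also differed between the groups. Of the summed level of *Igfbp2* to *Igfbp7* in RPM per kb, *Igfbp7* took 40.3% to 63.4% in reaggregates, *Igfbp5* took 15.7% to 33.9% and *Igfbp4* took 7.16% to 42.9%. In the unlabelled flat cultures *Igfbp7* took 78.7% and 85.9% and *Igfbp5* took 1.51% and 1.80%. In the labelled flat cultures *Igfbp4* took 71.0% and 74.1%. The sum itself was 161 to 202 RPM per kb in reaggregates and 138 and 178 in the unlabelled flat cultures, and it reached 978 and 1193 RPM per kb in the labelled ones.

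Cell source within the flat cultures was compared as 2 labelled against 2 unlabelled cultures, where no exact test can reach 0.05. Of the 8 tested IGF genes, 1 was higher and 2 were lower in the labelled cultures, beside 1.82% and 3.87% of all genes. *Igfbp4* was higher by 5.06 on the log2 scale, with a standard error of 0.42 (limma, Benjamini-Hochberg adjusted p = 0.00746). *Igf1* was lower, with a log2 difference of −4.51 and a standard error of 0.32 (limma, adjusted p = 0.00581). *Igfbp5* was lower as well, with a log2 difference of −4.72 and a standard error of 0.41 (limma, adjusted p = 0.00778). Without the filter on low values the calls of *Igfbp4* and *Igfbp5* were lost at unchanged differences (limma, adjusted p = 0.0765, within 0.000579 to 0.166 over all alternatives, and 0.0790, within 6.46e-06 to 0.182), and *Igf1* was still called. For *Igfbp7* the difference was 1.19 (limma, adjusted p = 0.0929) and for *Igf2* it was −3.01 (limma, adjusted p = 0.220), neither past the threshold, though with the spread pooled over all libraries *Igfbp7* was called higher at the same difference (limma, adjusted p = 0.00299, the lowest of its alternatives, the highest being 0.589). When any of the 4 flat cultures was left out, limma called 0 genes, with 1784 to 4137 at an unadjusted p up to 0.05; 1 library then stands alone against 2. The differences then ran from −4.61 to −4.41 for *Igf1*, from 4.55 to 5.58 for *Igfbp4* and from −5.02 to −4.42 for *Igfbp5*. The reaggregates carry no laboratory label, so culture form and cell source cannot be told apart in the comparison with all flat cultures.

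IL-3 was examined within reaggregates, 3 with it against 3 without, where the exact permutation test cannot give p below 0.1. By limma 0 of 16933 genes were called (0.0%), and 68 reached 0.05 before adjustment. With the consecutive pairs as a block, 0 were called and 564 reached it. The log2 differences of the IGF genes ran from −0.48 for *Igfbp6* to 0.09 for *Igf1*. For *Igfbp5* the difference was −0.07, with a 95% confidence interval from −0.73 to 0.59, or from −0.22 to 0.08 with the pair block. The intervals for *Igf2*, from −2.95 to 3.01, and *Igfbp4*, from −2.33 to 2.28, were wide and left changes above 4-fold possible, whereas with the pair block they were −0.27 to 0.33 and −0.21 to 0.16.

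Other genes of the pathway were taken from lists and compared in the same fit, where the median log2 difference over all genes was 0.04. In that fit 7.32% of all genes tested were called up and 6.53% down. Among other ligands, receptors and carriers, *Igfals*, the acid-labile subunit of serum IGF complexes, was up by 1.22 at a low level of 1.73 ± 0.394 RPM (SD, n = 6) in reaggregates, and 1 of the 2 tested was thus called, though 0 were without flat culture 4. Of 29 tested genes for receptor adaptors and PI3K-AKT signalling, 6 were up and 1 was down, with a median of 0.48. The phosphatase gene *Ptpn1* rose by 1.64, the adaptor gene *Irs2* by 1.48, the PI3K regulatory subunit gene *Pik3r3* by 1.30 and the transcription factor gene *Foxo3* by 1.23. The PI3K catalytic subunit gene *Pik3cb* had a log2 difference of −1.81. With consecutive reaggregates averaged, 2 were up and 0 down in this list, beside 1.9% and 2.53% of all genes. Without reaggregate 1, 3 were up, and without flat culture 4 *Pik3cb* was not called.

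Of 14 tested FOXO target genes, 9 were up and 0 down, with a median of 1.51, beside 7.32% of all genes up and 6.53% down. FOXO factors are held out of the nucleus when AKT is active. The largest differences were those of the growth arrest gene *Gadd45a*, 3.91, the pro-apoptotic *Bcl2l11*, 3.36, the ubiquitin ligase gene *Fbxo32*, 2.43, and the PI3K inhibitor gene *Pik3ip1*, 2.36. Against unlabelled flat cultures 7 were up, beside 3.7% of all genes, and with averaged reaggregates 5, beside 1.9%. In each 0 were down, beside 6.17% and 2.53% of all genes. *Irs2* belongs to this list too. Of 6 tested genes for IGFBP proteases and their inhibitors only *Pappa*, which encodes the IGFBP4 protease, was called, with a log2 difference of 1.09 and a list median of 0.14; with averaged reaggregates 0 were called, without flat culture 4 0 were up, and without flat culture 1 or 2 1 gene was down. Of 3 genes for IGF2 mRNA-binding proteins limma called 0, with 0 at an unadjusted p up to 0.05 and a median of 0.01. Of 11 tested genes with an IGFBP domain outside the family, 2 were up and 2 down, with a median of −0.06. These were the matricellular gene *Wisp1*, at 2.37, and the serine protease gene *Htra3*, at 2.12, and in the other direction *Cyr61*, at −1.51, and *Htra4*, at −1.39. In the labelled flat cultures limma called *Wisp1* (−2.30), *Htra3* (−2.18) and *Nov* (−5.25) lower than in the unlabelled ones. *Htra4* was scarce, with a mean of 0.248 RPM in reaggregates, below the floor, and 1.49 RPM in flat cultures.

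Markers and growth state were measured beside these genes in the same fit, where 7.32% of all genes were called up and 6.53% down. Of 9 tested stromal markers 6 were up and 1 was down, with a median of 1.58; *Col3a1* rose by 4.11, *Col1a1* by 1.93, *Col1a2*, the most abundant at a mean of 7069 RPM, by 1.83 and *Pdgfrb* by 1.74, while *Kitl* fell by 1.01, a call that was lost without reaggregate 3, 4 or 5 or flat culture 3, leaving 0 down. Adipocyte markers had 3 of 6 down (*Fabp4*, −2.37; *Pparg*, −1.67; *Cebpa*, −1.36), a median of −0.96, and *Lpl* as the most abundant at 321 RPM; 0 were down without flat culture 2 or 4, and 1 when any single one of reaggregates 1 to 5 was left out. Summed over the list they made up 346, 347, 626, 691, 255 and 270.1 RPM in the consecutive reaggregates, and 369.6, 1385, 528 and 1457 RPM in flat cultures 1 to 4. Smooth muscle markers had 1 of 4 down (*Cnn1*, −1.14), a median of −1.52, and *Acta2* as the most abundant at a mean of 559.99 RPM; 0 were down without reaggregate 1, 4, 5 or 6 or flat culture 2 or 4, 3 without flat culture 1 and 2 without flat culture 3. The smooth muscle sum over reaggregates was 217, 228, 455, 430.5, 84.9 and 94.5 RPM, and over flat cultures 191, 2657, 367 and 2749 RPM. Both sums were highest in flat cultures 2 and 4, as *Igfbp4* was, and none of these markers was at 0 in all libraries. Between the sources of flat culture, limma called *Fabp4* (3.84), *Pparg* (2.66), *Tagln* (4.74) and *Acta2* (3.14) higher in the labelled cultures. *Plin1* was called too, at 1.86, but exceeded 0.5 RPM only there. Other tested markers of these lists were not called, and the stromal *Col3a1* was lower at −4.02 (limma, adjusted p = 0.0182). The part of these markers in the *Igfbp4*, *Igf1* and *Igfbp5* results was not tested.

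Of 5 tested haematopoietic markers limma called 0, with 0 at an unadjusted p up to 0.05, *Ptprc* and *Emr1* at 0 in all libraries and *Lyz2* the most abundant at a mean of 19.6 RPM. *Lyz2* was called lower in the labelled than in the unlabelled flat cultures, at −2.18 (limma, adjusted p = 0.0421). Endothelial and epithelial markers were near 0, each with 1 tested, 0 called and 0 at that unadjusted p: *Pecam1*, the most abundant endothelial marker, had a mean of 0.338 RPM, *Krt14* had 0.109 RPM, and *Epcam* and *Krt18* were at 0. Of 5 osteoblast markers 0 were called and 2 had an unadjusted p up to 0.05, with 1 down without reaggregate 6 or flat culture 3; *Spp1* was the most abundant at a mean of 4940.0 RPM. Their sum was 3027, 2867, 1458, 1561, 5185 and 5460.1 RPM for reaggregates and 5758, 7579, 3356 and 13841 RPM for flat cultures and was nearly all *Spp1*, which alone made up 13800.0 RPM in flat culture 4. Between the sources of flat culture, the osteoblast marker *Alpl* was called lower in the labelled cultures at −3.85 (limma, adjusted p = 0.00836). *Spp1*, at 1.23, *Ibsp* and *Runx2* were not called. *Sp7* exceeded 0.5 RPM only in the labelled cultures, at 0.835 and 0.972 RPM. Its call as higher there, at 1.33 (limma, adjusted p = 0.0476), thus carries no weight. All 16 cell cycle genes were down, with a median of −2.21, and 14 were without flat culture 1. They included *Mad2l1* at −2.80, *Aurka* at −2.75, *Ccnb1* at −2.70 and *Ccnb2* at −2.35, and *Top2a* was the most abundant at 167 RPM. The sum over the list was 427, 427, 358, 406, 433 and 534 RPM for reaggregates, and for flat cultures it was 2689.6, 1023, 2116.5 and 1323 RPM; its part in the IGF results was not tested. Of 11 immediate early and stress genes 7 were up, with a median of 1.54, including *Fosb* at 4.19, *Atf3* at 4.08, *Fos* at 2.53 and *Hspa1b* at 2.33. Their sum was 507 RPM in flat culture 1, 826 in flat culture 2, 2950.45 in flat culture 3 and 899.9 in flat culture 4, against 2075 to 2615 RPM in reaggregates. *Egr1* was the most abundant at 523 RPM. Against the unlabelled flat cultures 1 of these 11 was up, as with averaged reaggregates, beside 3.7% and 1.9% of all genes. Without flat culture 1 or 2, 4 were up, and without flat culture 4, 3 were up. The part of these genes in the IGF results was not tested either.

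For each called IGF gene the 3 genes with the most similar profile over the 10 libraries were found among 11661 genes with a mean of at least 5 RPM. Those for *Igf1* were *Tmtc4*, *Col4a5* and *C1qtnf6*, with Pearson's r of 0.999, 0.995 and 0.995. *Igf2r* was followed most closely by *Grn*, *Pltp* and *Extl3*, with r of 0.994, 0.984 and 0.983. *Igfbp5* was matched by *Nt5dc2*, *A4galt* and *Cyth3*, with r of 0.998, 0.994 and 0.992, and *Igfbp7* by *Masp1*, *Pik3cb* and *Exoc8*, with r of 0.989, 0.988 and 0.987. These r describe libraries that share cell source and culture form, and they carry no test.

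The promoters of *Igf1*, *Igfbp5* and *Igfbp4* are shown because these 3 genes were the IGF genes called between sources of flat culture, with *Igfbp4* opposite to the other pair. RefSeq gave promoters for all 10 IGF genes, each 300 bases from 250 before to 50 after the gene's start, on GRCm38.p6, a later build than that of the expression table. Both strands were searched, and matches are in capitals. The TATA motif, with the letters TATAAA, was in 13.6% of 32851 promoters. The AP-1 motif, with the letters TGANTCA, was in 7.81% of them, and the FOXO motif, with the letters TGTTTAC, in 3.65%. The *Igf1* promoter, chr10:87860861-87861160 on the plus strand, held an AP-1 match that begins at −37, with the gene's start as 0. That of *Igfbp4*, chr11:99040994-99041293 on the plus strand, held a TATA match that begins at −28. That of *Igfbp5*, chr1:72874816-72875115 on the minus strand, held none of these letters. A match describes the sequence and does not show that a factor binds there.
Igf1: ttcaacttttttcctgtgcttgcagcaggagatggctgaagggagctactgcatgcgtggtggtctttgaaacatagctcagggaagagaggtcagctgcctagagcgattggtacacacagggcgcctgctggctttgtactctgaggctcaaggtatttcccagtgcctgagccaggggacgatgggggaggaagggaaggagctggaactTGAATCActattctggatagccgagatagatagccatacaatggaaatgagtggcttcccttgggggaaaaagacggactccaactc
Igfbp5: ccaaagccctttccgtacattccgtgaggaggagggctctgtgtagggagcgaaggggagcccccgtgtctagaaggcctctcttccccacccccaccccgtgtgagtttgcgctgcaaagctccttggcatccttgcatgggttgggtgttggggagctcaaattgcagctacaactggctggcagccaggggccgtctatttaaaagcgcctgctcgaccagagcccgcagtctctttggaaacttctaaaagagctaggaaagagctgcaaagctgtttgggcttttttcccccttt
Igfbp4: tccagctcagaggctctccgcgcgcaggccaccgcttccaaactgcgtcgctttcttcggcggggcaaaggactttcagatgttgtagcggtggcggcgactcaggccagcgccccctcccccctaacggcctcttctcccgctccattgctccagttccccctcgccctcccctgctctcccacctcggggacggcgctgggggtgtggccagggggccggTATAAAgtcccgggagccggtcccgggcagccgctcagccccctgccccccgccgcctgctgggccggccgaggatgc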

How the data were processed

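Alignment by the authors used TopHat 1.2.0 with Bowtie on NCBI37/mm9. GeneProf then counted reads per Ensembl gene, sharing out those that mapped to more than 1 gene. For every gene the authors deposited its RPM in each of the 10 libraries. Beside these stand a log2 fold change and a Benjamini-Hochberg adjusted p-value that the authors obtained with DESeq for reaggregates against flat cultures, neither of which was used. Between 69.5% and 72.4% of low RPM values were whole multiples of 1 read within 1%, so counts were not recovered and no count test was run.

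Values were compared as log2(RPM + 0.5) with limma 3.58.1 (R 4.3.3; empirical Bayes with a mean-variance trend, no covariates), and single genes with exact permutation tests (scipy 1.17.1). The procedure was tested on simulated data with independent libraries. These held no consecutive pairs and, for reaggregates against flat cultures, no cell sources, so the test says nothing on either. Figures used matplotlib 3.10.9 in Python 3.11.15. Groups, IL-3 and cell source came from the labels. Exon lengths and gene positions came from GENCODE on the same build, in a later Ensembl release; promoters came from RefSeq.

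All 10 IGF genes are named. From other lists, the called genes are named, at most 4 in each direction by size of the log2 fold change, with the most abundant gene of each marker list. The genes and lists were chosen with earlier results of these data known. *Ins1*, *Ins2*, *Igfbp1*, *Stc2*, *Wisp3*, *Spi1*, *Cldn5*, *Lep* and *Bglap* matched no single entry by name and were not analysed here; *Cdk1* was found under its older symbol *Cdc2a*. Altogether 41 alternative settings were run, 1 of them chosen after seeing the data.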

Additional observations from a re-analysis of the deposited data

Results flagged for a closer look

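*Igfbp3* in reaggregate 5, at 0.108 RPM, and in flat culture 3, at 0.12 RPM, stood apart from the other libraries of their groups, all of which were at 0. Each value is 1 read and below the floor of 3 reads. Across 18 groups of values examined for such libraries 2 stood out, and chance gives about 1 in 20.

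The difference between reaggregates and flat cultures depended on the source of the flat cultures for 3 IGF genes. As effect against unlabelled minus effect against labelled flat cultures, which equals the difference between the flat sources because the reaggregates are shared, it was −4.51 on the log2 scale for *Igf1* (limma, adjusted p = 0.00581), −4.72 for *Igfbp5* (limma, adjusted p = 0.00778) and 5.06 for *Igfbp4* (limma, adjusted p = 0.00746). Adipocyte and smooth muscle marker sums were also highest in the labelled flat cultures, as was the osteoblast sum, nearly all *Spp1*. *Col3a1* was called lower in them at −4.02 (limma, adjusted p = 0.0182). The part of these markers in the IGF differences was not tested.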

How the results depend on the processing

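*Igfbp5* kept its direction and its call in all 24 alternatives to the comparison of reaggregates with flat cultures. The number of genes up, 1239 with all libraries, was 1885 with the replicate block, 321 with consecutive reaggregates averaged, 2579 against labelled and 627 against unlabelled flat cultures, 345 with only reaggregates without IL-3, 277 with only those with IL-3, and 122 with averaged reaggregates against unlabelled flat cultures, which was chosen after seeing the data. Genes down were 1106 with all libraries and, in the same order of settings, 1154, 429, 1775, 1044, 474, 360 and 398. Fewer samples entered the averaged, labelled, unlabelled and IL-3 settings, and the cause of the changed counts was not tested. IGF genes up were 1 with averaged reaggregates and 1 in each IL-3 setting (beside 2.04% and 1.64% of all genes); IGF genes down were 2 against labelled flat cultures and 0 against unlabelled ones, with averaged reaggregates against all or against unlabelled flat cultures, and in both IL-3 settings.

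Deviations of same-numbered libraries correlated at −0.21 to 0.15 over 4 numbers, and those of differently numbered libraries at −0.33 to 0.38. These values cannot show whether the replicate numbers pair the libraries, because consecutive reaggregates are alike while neighbouring flat cultures differ in label. With the replicate block 4 IGF genes were up and 1 down, beside 11.1% and 6.82% of all genes, *Igf2* being gained at 3.82.

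Leaving out 1 library at a time gave 766 (without flat culture 4) to 2121 (without flat culture 3) genes up, and 0 (without flat culture 2) to 1 IGF genes down. For cell source it gave 0 to 0 genes higher, 0 to 0 lower and 0 to 0 IGF genes. Cell source gave 70 genes higher and 134 lower with 1 IGF gene (*Igf1*) called without a filter, 646 higher with quantile normalization, and 726 higher and 1622 lower with the spread pooled over all libraries, where *Igfbp7* was gained, against 309 and 656.

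Some signs turned, and the cause was not tested. *Igf1r* was −0.033 with quantile normalization, −0.00017 with median-ratio scaling, −0.36 against labelled flat cultures and −0.34 to 0.20 with 1 library left out. *Igfbp4* was 0.62 against unlabelled flat cultures, also with averaged reaggregates (0.62), and *Igfbp6* was 0.14 against labelled ones. For IL-3 the differences with 1 library left out ran from −0.24 to 0.37 for *Igf1*, −1.01 to 1.13 for *Igf2*, −0.068 to 0.12 for *Igf1r*, −0.10 to 0.13 for *Igf2r*, −0.84 to 0.76 for *Igfbp4*, −0.33 to 0.12 for *Igfbp5* and −0.039 to 0.16 for *Igfbp7*; these fits do not hold the consecutive pairs, so leaving out 1 library puts differences between pairs into the IL-3 difference. For cell source *Igf2r* ran from −1.12 to 0.011, the lone library being assumed to vary like the others. With the filter at a mean of 1 RPM *Igfbp6* had no value, which left 23 alternatives for it. Depth limits *Igf2* and *Igfbp5* in the labelled flat cultures, *Igfbp3* and *Igfbp6* throughout, and *Htra4* in reaggregates.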

Other observations

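The balance between members was also measured within each library, per kb of annotated exon sequence. The ratio of *Igf1* to *Igf2* level was 7.36, 6.11, 6.77 and 7.07 in reaggregates 1 to 4, and 37.2 and 48.8 in reaggregates 5 and 6. It was 36.8 in flat culture 1, where *Igf2* had only 7 reads, and 1.83 in flat culture 3. In flat cultures 2 and 4 it would rest on 1 read of *Igf2* each. *Igf2* had about 21 and 20 reads in reaggregates 5 and 6. The ratio of *Igf2r* to *Igf1r* level was 1.48, 1.61, 1.66, 1.54, 2.39 and 2.33 in reaggregates 1 to 6, and 1.40, 0.580, 0.878 and 0.342 in flat cultures 1 to 4. *Igf2r* thus exceeded *Igf1r* per kb in every reaggregate and in flat culture 1, and was below it in the other flat cultures. Exon lengths join all annotated transcripts of a gene, so these ratios depend on which transcripts the cells use.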
